A study of Homo sapiens with 10 samples.

Results

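The genes described here are 30 genes of the DNA damage checkpoint and of DNA repair, measured in the human breast cancer lines SKBR3 and MDA-468 after depletion of Che-1, the protein encoded by AATF. They were taken from a fixed list of gene names and matched, by current symbol or older alias, to the probe sets of a whole-transcript array, keeping the probe set with the highest mean for each gene. Of the 30 genes, 27 had a probe set with 1 gene symbol, out of 18417 genes in all. BRCA2, FANCD2 and FANCA matched no such probe set and were not analysed here. All 27 passed the filter on dim genes, with group means from 6.58 to 12.05 on the log2 scale against a filter level of 6.03, and each was above that level in all 4 groups. By role, 15 belong to the checkpoint, 8 (of 11 listed) to homologous recombination and crosslink repair, 3 to end joining and 1 to mismatch repair.

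Cells answer broken or stalled DNA with a kinase cascade. ATM responds to breaks and ATR to stretches of exposed single-stranded DNA, and they signal through the kinases CHEK2 and CHEK1 to stop the cell cycle. Breaks are then repaired by homologous recombination, which copies an intact sister chromatid, or by end joining, which ligates the ends directly; mismatch repair corrects replication errors. Che-1 itself is a known substrate of this cascade and is phosphorylated by ATM and CHEK2 after damage. Many repair genes are expressed mainly in S and G2 phase, so their RNA level also follows the share of dividing cells. On these bulk arrays, fewer cells in a phase cannot be told apart from less RNA per cell.

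The samples were 2 SKBR3 arrays with siControl, a control RNA duplex, 2 SKBR3 arrays with siChe-1, a duplex against Che-1, and 3 MDA-468 arrays with each of the same duplexes. Cells were harvested 48 h after transient transfection. The labels describe both lines as breast cancer cells that express mutant p53, a feature that all 4 groups share. The labels name 1 reagent against Che-1 and no added DNA-damaging agent, and they do not state that each replicate was a culture of its own. The p-values therefore rest on the scatter among these arrays alone, and that scatter may be technical. A gene's variance was taken as the same in all 4 groups, so p-values in SKBR3 also rest on MDA-468 scatter.

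AATF, the targeted gene, was lower on every siChe-1 array. Depleted SKBR3 kept 63.3% of the control level (change -0.66 ± 0.10, limma adjusted p = 0.000778), and depleted MDA-468 kept 30.5% (change -1.71 ± 0.08, limma adjusted p = 2.16e-08). Array medians ran from 6.36 to 6.45 in SKBR3 and from 6.87 to 6.94 in MDA-468, so changes were taken within a line. The marker levels that follow are given for each line as deposited and were not adjusted for this offset. ERBB2, the receptor amplified in SKBR3, stood at 12.33 with siControl in SKBR3 and 8.29 in MDA-468, and EGFR, the receptor that marks MDA-468, at 7.91 and 12.25. Of the other markers listed for SKBR3, GRB7 stood at 10.30 and 7.89, KRT8 at 12.89 and 12.67 and KRT18 at 12.67 and 12.48. EPCAM, also listed for SKBR3, was higher in MDA-468 (11.59 and 12.47). Of those listed for MDA-468, KRT5 stood at 7.58 and 12.47 and KRT14 at 7.52 and 8.08. KRT6A and KRT17, also listed, had no probe set with 1 gene symbol. With siChe-1 in MDA-468, EGFR rose by 0.72, KRT5 by 0.82 and KRT14 by 1.95, each called by limma. In SKBR3 EGFR rose by 0.27, and KRT5 and KRT14 were not called. Of 8 markers of fibroblasts, leukocytes and endothelium, PTPRC, CD3E, DCN, PECAM1 and CDH5 lay below the filter level on average; CD14 stood at 5.42 and 9.51 with siControl and rose in both lines, by 0.53 and 0.64. COL1A1 stood at 7.32 and 7.69 and rose in MDA-468, by 0.34 (adjusted p = 0.0195), and COL1A2 stood at 6.10 and 6.27 and was called in neither line. The part of these markers in the results below was not tested. The 2 SKBR3 siChe-1 arrays differed more than other replicates (r = 0.978, against 0.990 to 0.996 elsewhere, over 12892 genes). Replicate 2 was below replicate 1 for 24 of the 27 checkpoint and repair genes and for 59.3% of all genes. The siControl pair split the other way for these genes, with replicate 2 below replicate 1 for 6 of the 27 and for 56.6% of all genes. Results in SKBR3 are therefore given with and without single arrays.

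In SKBR3, 4 of the 27 genes rose with siChe-1 and 10 fell (limma, Benjamini-Hochberg adjusted p below 0.05 over 12892 genes). Of all genes tested, 6.64% were called higher in this comparison and 17.1% lower, 23.7% in all. The median log2 fold change was -0.29, against -0.08 for all genes. With SKBR3 fitted alone, 1 of the 27 genes was called higher and 1 lower, and 5.19% of all genes were called. Of the 14 calls in the main fit, those of CHEK2 and RAD17 held under all 19 alternatives. The calls of ATM, RAD50, MDC1, TOPBP1, BRCA1, BLM and PRKDC were lost with SKBR3 fitted alone and with a block for replicate number, besides the losses named below. Of the siChe-1 arrays, both lay below both siControl arrays for 17 of the 27 genes, where 37.8% of all genes did, and both lay above for 4, where 14.5% did. The number of lower genes rested on single arrays. It was 1 without siControl replicate 2 and also 1 without siChe-1 replicate 2, 5 without siControl replicate 1, and 18 without siChe-1 replicate 1. The number of higher genes was 2 without siControl replicate 2.

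In MDA-468, 7 of the 27 genes rose and 6 fell, where 16.4% of all genes were called higher and 27.0% lower, 43.5% in all. The median was -0.02, the same as for all genes. All 3 siChe-1 arrays lay above all siControl arrays for 9 genes and below them for 10, where 23.9% and 36.0% of all genes did. The number of higher genes was 3 without siControl replicate 2 or siChe-1 replicate 3, and 4 without siControl replicate 1 or replicate 3; the number of lower genes was 4 without siControl replicate 1, siControl replicate 2, siChe-1 replicate 1 or siChe-1 replicate 2. With each array centred on its median the split was 4 higher and 6 lower. With MDA-468 fitted alone it was 7 higher and 8 lower, and 52.4% of all genes were called. ATM and BRCA1 were then called lower as well.

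Across both lines, CHEK2 and RAD54L rose in each, where 4.85% of all genes did. RAD17 and PRKDC fell in each, where 9.32% of all genes did. TOPBP1 and EXO1 fell with siChe-1 in SKBR3 but rose in MDA-468; 1.37% of all genes were called in opposite directions. Another 8 genes were called in SKBR3 alone (8.18% of all genes), 7 in MDA-468 alone (27.9% of all genes, near the share of the 27) and 6 in neither (48.4% of all genes).

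**Figure D1:**
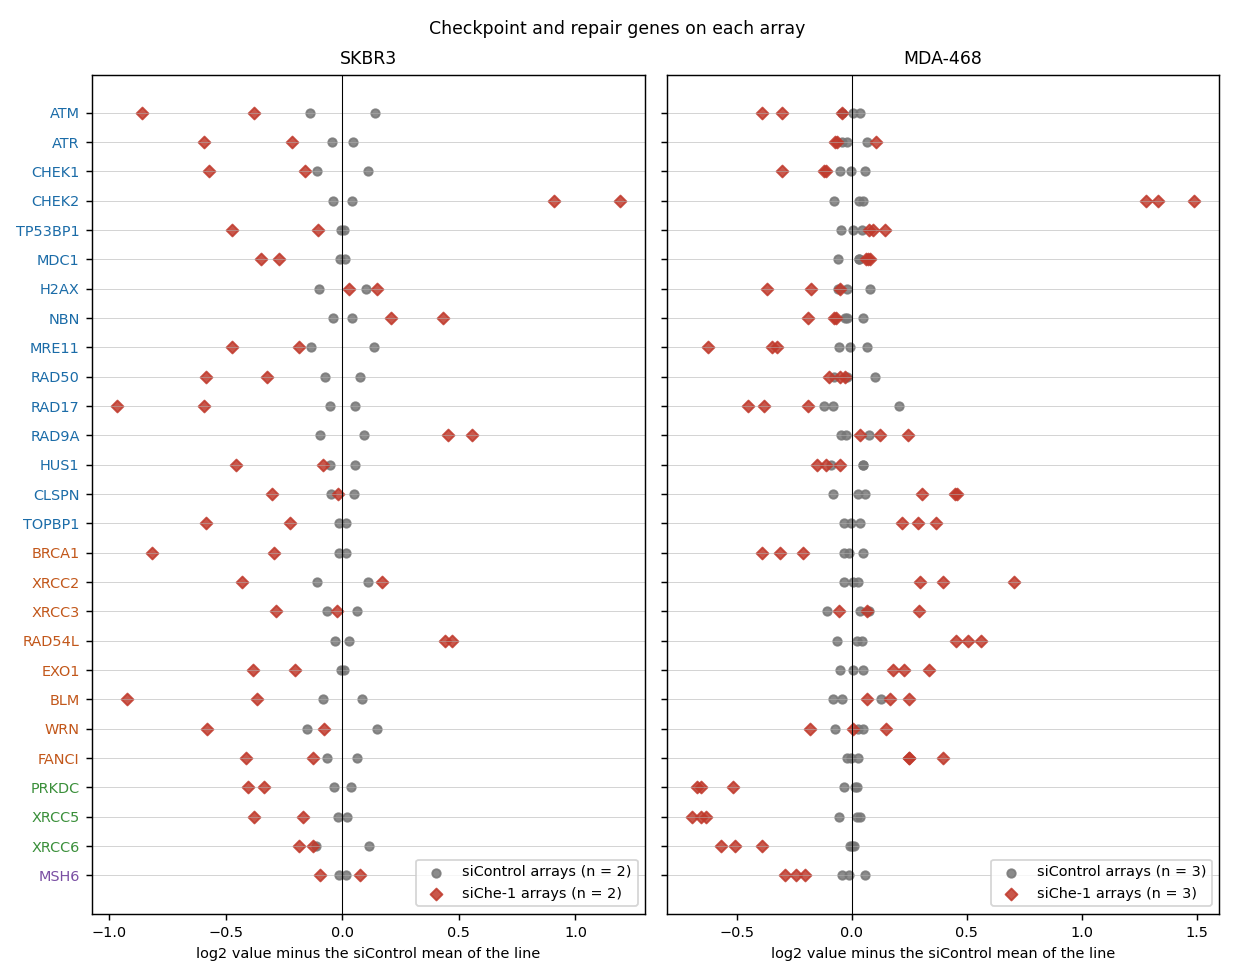
Each row is a gene and each point an array, plotted as its log2 value minus the siControl mean of its line (grey circles siControl, red diamonds siChe-1; label colours give the sub-pathway: blue checkpoint, orange recombination and crosslink repair, green end joining, purple mismatch repair). CHEK2 stands apart to the right in both lines, the 3 end joining genes lie to the left in MDA-468, and in SKBR3 the siChe-1 arrays lie far apart for many genes.

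The checkpoint kinases did not move together: CHEK2 rose strongly in both lines, whereas ATM and ATR fell in SKBR3. CHEK1 passed the test in neither line, although its change in SKBR3 (-0.36) was close to that of ATR (-0.40). CHEK2, the effector kinase downstream of ATM (probe set 8075164), had log2 values of 7.81 and 7.73 with siControl in SKBR3 and of 8.96 and 8.68 with siChe-1. In MDA-468 it stood at 8.82, 8.80 and 8.69 with siControl and at 10.05, 10.10 and 10.26 with siChe-1. The groups did not overlap in either line, and the lowest siChe-1 array was well above the highest control. This was a change of 1.05 ± 0.12 in SKBR3 (log2 fold change ± SE, to 207% of control, adjusted p = 8.92e-05) and of 1.36 ± 0.09 in MDA-468 (to 257% of control, adjusted p = 6.82e-07). The change was the largest rise among the 27 genes in each line and lay at the 97.9th and 98.0th percentile of all genes tested. The calls held under each alternative that was run, with values from 0.91 to 1.19 in SKBR3 and from 1.30 to 1.41 in MDA-468. The difference between the lines was -0.31 (95% interval -0.64 to 0.01, adjusted p = 0.173). The RefSeq gene table names 6 CHEK2 pseudogenes, and whether this probe set also reads their transcripts was not tested.

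ATM, the kinase that senses DNA breaks, measured 8.55 and 8.83 with siControl in SKBR3 and 8.31 and 7.83 with siChe-1. All siChe-1 values were lower, but they spread more than the controls. The fall was 0.62 ± 0.16 (adjusted p = 0.0187), and it missed the threshold without siControl replicate 2 or without siChe-1 replicate 2. In MDA-468 the values were 9.00, 8.92 and 8.97 with siControl and 8.57, 8.66 and 8.92 with siChe-1, a change of -0.25 (adjusted p = 0.155). ATR, the kinase of replication stress, fell in SKBR3 from 8.73 ± 0.062 to 8.33 ± 0.267 (SD, n = 2; adjusted p = 0.0386), a call lost under 11 of 19 alternatives, and was 9.39 ± 0.059 and 9.37 ± 0.102 (SD, n = 3) in MDA-468. CHEK1, the effector kinase of ATR, changed by -0.36 in SKBR3 (adjusted p = 0.0807) and by -0.18 in MDA-468 (adjusted p = 0.226). Its siChe-1 arrays lay below all siControl arrays in each line, as did those of 37.8% of all genes in SKBR3 and 36.0% in MDA-468.

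Among the listed genes of the clamp and its loader, which mark damaged sites for ATR, RAD17 fell in both lines while RAD9A rose in SKBR3. RAD17, a subunit of the loader, read 7.31 and 7.42 with siControl in SKBR3 and 6.77 and 6.40 with siChe-1. Both siChe-1 arrays were lower by more than the spread of either pair. The change was -0.78 ± 0.15 (to 58.2% of control, adjusted p = 0.00408), the deepest fall of the 27 genes in this line, and the call held under all 19 alternatives. In MDA-468 the readings were 8.13, 7.84 and 7.80 with siControl and 7.47, 7.54 and 7.73 with siChe-1. The change there was -0.34 ± 0.12 (adjusted p = 0.0418), and it was lost under 9 of 18 alternatives. The second RAD17 probe set changed by -0.83 and -0.39, and the gene table names 2 RAD17 pseudogenes.

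RAD9A, a subunit of the clamp, was at 8.72 and 8.53 with siControl in SKBR3 and at 9.18 and 9.08 with siChe-1, a rise of 0.50 ± 0.11 (adjusted p = 0.00674, from 0.00306 to 0.108 over the alternatives). The call was lost when SKBR3 was fitted alone and without siControl replicate 2. The siChe-1 arrays lay above the controls. Its values in MDA-468 overlapped, with a change of 0.14 (adjusted p = 0.234). HUS1, the partner of RAD9A in the clamp, changed by -0.27 (adjusted p = 0.135) and -0.11 (adjusted p = 0.415).

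Of the genes that help ATR signal to CHEK1, TOPBP1 fell in SKBR3 and rose in MDA-468, and CLSPN rose in MDA-468. TOPBP1, which switches ATR on, had values of 9.48 and 9.45 with siControl in SKBR3 and 9.24 and 8.88 with siChe-1. In MDA-468 it was 9.85, 9.82 and 9.89 with siControl and 10.07, 10.14 and 10.22 with siChe-1. No array of a group overlapped the other group of its line. TOPBP1 thus fell by 0.40 ± 0.12 in SKBR3 (adjusted p = 0.0286) and rose by 0.29 ± 0.10 in MDA-468 (adjusted p = 0.0289). The call in SKBR3 was lost without siControl replicate 1, siControl replicate 2 or siChe-1 replicate 2, and that in MDA-468 under 7 of 18 alternatives, among them the omission of any 1 siControl array, of siChe-1 replicate 2 or of siChe-1 replicate 3. CLSPN, the adaptor that brings CHEK1 to ATR, rose in MDA-468 from 10.10 ± 0.075 to 10.51 ± 0.086 (SD, n = 3; change 0.40 ± 0.09, adjusted p = 0.00425) and was 8.57 ± 0.073 and 8.41 ± 0.198 (SD, n = 2) in SKBR3 (change -0.17, adjusted p = 0.329). Its other probe set changed by 0.34 in MDA-468 and 0.06 in SKBR3.

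MRE11, RAD50 and NBN form the break sensor complex, which binds DNA ends and activates ATM. Their calls differed in the main fit, and the genes were not tested against each other. MRE11, its nuclease, fell in MDA-468 from 8.32 ± 0.060 to 7.89 ± 0.168 (SD, n = 3; adjusted p = 0.00945; 1 MRE11 pseudogene is named) and changed by -0.33 in SKBR3 (adjusted p = 0.112). RAD50, the subunit that tethers the ends, fell in SKBR3 by 0.46 ± 0.11 (adjusted p = 0.0138, lost without siControl replicate 2 or siChe-1 replicate 2) and changed by -0.06 in MDA-468 (adjusted p = 0.629). NBN, the subunit that recruits ATM, was 10.77 and 10.85 with siControl and 11.24 and 11.02 with siChe-1 in SKBR3. It rose there by 0.32 ± 0.10 (adjusted p = 0.0406), although the call was lost under 13 of 19 alternatives. Its change in MDA-468 was -0.12 (adjusted p = 0.289). So in the main fit NBN was called higher and RAD50 lower in SKBR3, calls that did not hold under all alternatives. In MDA-468 MRE11 was called lower without a call for its partners.

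Of the listed chromatin mediators MDC1, TP53BP1 and H2AX, which gather around breaks, MDC1 was called, in SKBR3. MDC1, the scaffold that reads phosphorylated H2AX, fell from 8.66 ± 0.018 to 8.35 ± 0.061 (SD, n = 2; adjusted p = 0.0213, lost without siControl replicate 1, siControl replicate 2 or siChe-1 replicate 2). In MDA-468 it changed by 0.07 (adjusted p = 0.451). TP53BP1, which favours end joining at breaks, changed by -0.29 (adjusted p = 0.0892) and 0.10 (adjusted p = 0.405), and H2AX, the histone variant that marks the site, by 0.09 (adjusted p = 0.636) and -0.20 (adjusted p = 0.128).

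**Figure D2:**
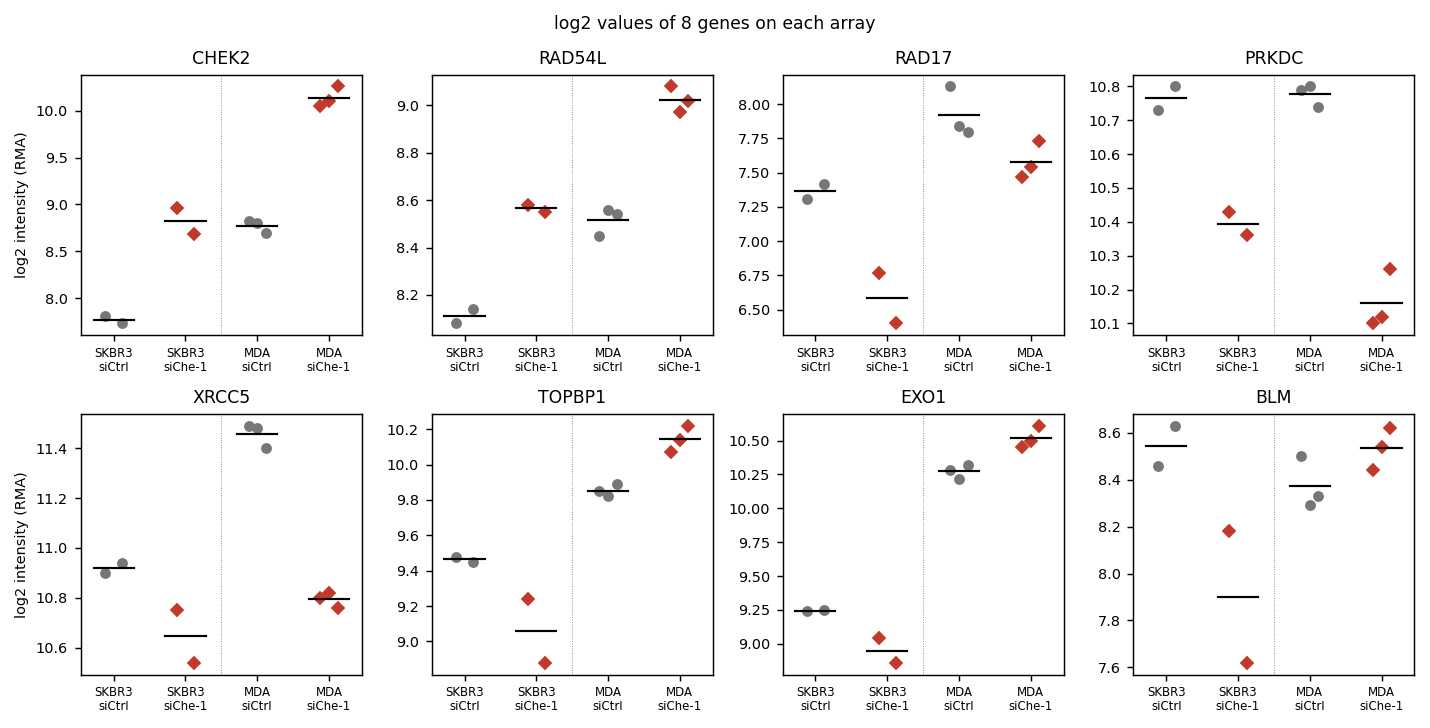
log2 RMA intensities of 8 genes, a panel each, by line and duplex (grey circles siControl, red diamonds siChe-1, black bars group means; n = 2 arrays a group in SKBR3 and 3 in MDA-468; the vertical scale differs between panels and does not start at 0). CHEK2 and RAD54L are higher and RAD17, PRKDC and XRCC5 lower on the siChe-1 arrays of each line, whereas TOPBP1 and EXO1 go down in SKBR3 and up in MDA-468.

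Of the 8 genes of homologous recombination and crosslink repair, 1 rose in SKBR3 (6.64% of all genes) and 3 fell (17.1% of all genes), with a median of -0.29; the 3 falls, of BRCA1, EXO1 and BLM, were each lost when single arrays were left out. In MDA-468, 4 of 8 rose (16.4% of all genes) and 0 were called lower by limma (1 at an unadjusted p below 0.05; 27.0% of all genes were called lower), with a median of 0.20. RAD54L, a motor protein of homologous recombination, rose in both lines. It read 8.08 and 8.14 with siControl and 8.58 and 8.55 with siChe-1 in SKBR3, and 8.45, 8.56 and 8.54 against 9.08, 8.97 and 9.02 in MDA-468. The replicates of each group lay close together and the groups did not overlap. The rises were 0.46 ± 0.09 (adjusted p = 0.00394, from 0.00167 to 0.123 over the alternatives, the highest when SKBR3 was fitted alone) and 0.51 ± 0.07 (adjusted p = 0.000158), with a difference of -0.05 between the lines (95% interval -0.30 to 0.20).

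BRCA1, the recombination mediator, fell in SKBR3. Its values were 7.60 and 7.63 with siControl and 7.32 and 6.80 with siChe-1. The fall was 0.55 ± 0.14 (adjusted p = 0.0180), and it was lost without siControl replicate 1, siControl replicate 2 or siChe-1 replicate 2. In MDA-468 BRCA1 was 8.89, 8.81 and 8.83 with siControl and 8.45, 8.53 and 8.63 with siChe-1. All 3 siChe-1 arrays were below the controls, but the change of -0.31 ± 0.12 did not pass the test (adjusted p = 0.0537, and from 0.00334 to 0.156 over the alternatives). The gene table names 1 BRCA1 pseudogene.

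BLM, the helicase that dissolves recombination intermediates, was 8.46 and 8.63 with siControl in SKBR3 and 8.18 and 7.62 with siChe-1. The arrays did not overlap, and siChe-1 replicate 2 was the lower by a wide margin. BLM fell by 0.65 ± 0.16 (adjusted p = 0.0150, lost without siControl replicate 2 or siChe-1 replicate 2). In MDA-468 its values of 8.50, 8.29 and 8.33 with siControl overlapped those of 8.44, 8.54 and 8.62 with siChe-1 (change 0.16, adjusted p = 0.361). WRN, a helicase of the same family, was called in neither line (changes of -0.32 and -0.01, adjusted p = 0.187 and 0.960).

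EXO1, the nuclease that resects DNA ends and also serves in mismatch repair, turned with the line as TOPBP1 did. In SKBR3 it was 9.24 and 9.25 with siControl and 9.04 and 8.86 with siChe-1, a fall of 0.30 ± 0.10 (adjusted p = 0.0454, lost under 12 of 19 alternatives). In MDA-468 it was 10.28, 10.22 and 10.32 with siControl and 10.45, 10.50 and 10.61 with siChe-1, a rise of 0.24 ± 0.08 (adjusted p = 0.0275, lost under 6 of 18). XRCC2, a recombination gene, rose in MDA-468 from 8.86 ± 0.029 to 9.33 ± 0.216 (SD, n = 3; adjusted p = 0.0245), as did FANCI, a partner of FANCD2 in crosslink repair, from 10.07 ± 0.022 to 10.37 ± 0.087 (adjusted p = 0.0190). Each of these calls was lost under 5 of 18 alternatives. In SKBR3 XRCC2 changed by -0.13 (adjusted p = 0.664) and FANCI by -0.27 (adjusted p = 0.0972). XRCC3, another recombination gene, changed by -0.15 and 0.10 (adjusted p = 0.469 and 0.482).

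All 3 genes of the end joining kinase fell in MDA-468, where 27.0% of all genes did, and PRKDC fell in SKBR3 as well, where 17.1% did. XRCC5 and XRCC6 encode the Ku subunits that clasp broken ends, and PRKDC encodes the kinase they recruit. PRKDC read 10.79, 10.80 and 10.74 with siControl in MDA-468 and 10.10, 10.12 and 10.26 with siChe-1. It was 10.73 and 10.80 against 10.43 and 10.36 in SKBR3. No values overlapped. The falls were 0.62 ± 0.07 in MDA-468 (to 65.2% of control, adjusted p = 5.62e-05) and 0.37 ± 0.09 in SKBR3 (to 77.4% of control, adjusted p = 0.0150; lost without siControl replicate 2 or siChe-1 replicate 2). Their difference was 0.25 (95% interval -0.01 to 0.51, adjusted p = 0.180).

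XRCC5 was 11.49, 11.48 and 11.40 with siControl in MDA-468 and 10.80, 10.82 and 10.76 with siChe-1, a fall of 0.67 ± 0.08 (to 63.0% of control, adjusted p = 3.77e-05) and the deepest of the 27 genes in this line. In SKBR3 it was 10.90 and 10.94 against 10.75 and 10.54, a change of -0.27 (adjusted p = 0.0567). XRCC6 read 12.05, 12.04 and 12.06 with siControl and 11.54, 11.66 and 11.48 with siChe-1 in MDA-468, a fall of 0.49 ± 0.08 (adjusted p = 0.000627). In SKBR3 it changed by -0.16 (adjusted p = 0.309). The 3 calls in MDA-468 held under all 18 alternatives. RefSeq names 5 XRCC6 pseudogenes, and whether the probe set also reads them was not tested.

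MSH6, a sensor of mismatched bases, was the listed gene of mismatch repair. It fell in MDA-468 from 10.08 ± 0.049 to 9.84 ± 0.041 (SD, n = 3; change -0.25 ± 0.07, adjusted p = 0.0200, lost under 5 of 18 alternatives). In SKBR3 it was 9.17 ± 0.022 and 9.15 ± 0.125 (SD, n = 2; adjusted p = 0.940).

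**Figure D3:**
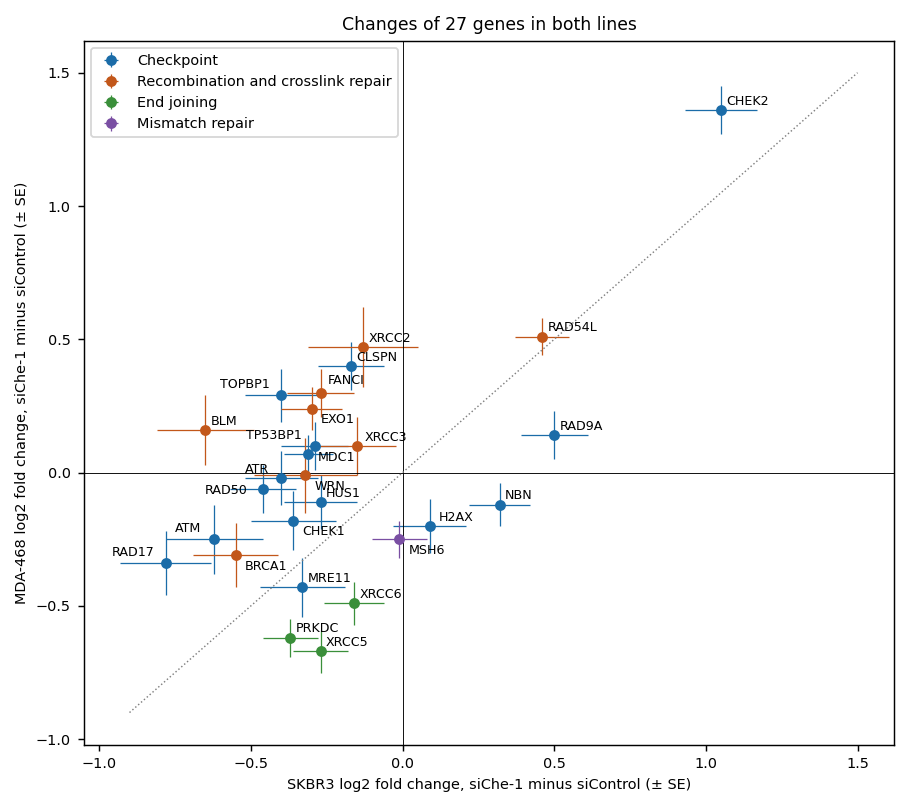
The log2 fold change of each of the 27 genes in SKBR3 (horizontal) and MDA-468 (vertical), siChe-1 minus siControl, with bars for the standard error of the fit and colours for the sub-pathway; the dotted line marks equal change. CHEK2 and RAD54L lie in the upper right, TOPBP1, EXO1, CLSPN, FANCI and XRCC2 in the upper left, and PRKDC, XRCC5 and XRCC6 in the lower left.

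The change itself differed between the lines for 8 of the 27 genes (limma, interaction contrast), where 19.2% of all genes did. The SKBR3 change was lower for BLM, TOPBP1, CLSPN, FANCI, EXO1 and MDC1, where 10.7% of all genes were called lower, and higher for NBN and XRCC5, where 8.49% were called higher. The difference for TOPBP1 was -0.69 ± 0.15 (95% interval -1.03 to -0.36, adjusted p = 0.00897), and it passed under all 17 alternatives. For BLM it was -0.81 ± 0.21 (adjusted p = 0.0201) and for EXO1 -0.54 ± 0.13 (adjusted p = 0.0121). The number of genes called lower in this contrast was 2 without SKBR3 siControl replicate 2, 3 without MDA-468 siControl replicate 2 and 15 without SKBR3 siChe-1 replicate 1; the 2 genes called higher dropped to 0 without any 1 array other than SKBR3 siChe-1 replicate 2. AATF depletion also differed between the lines, and its part in these differences was not tested.

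**Figure D4:**
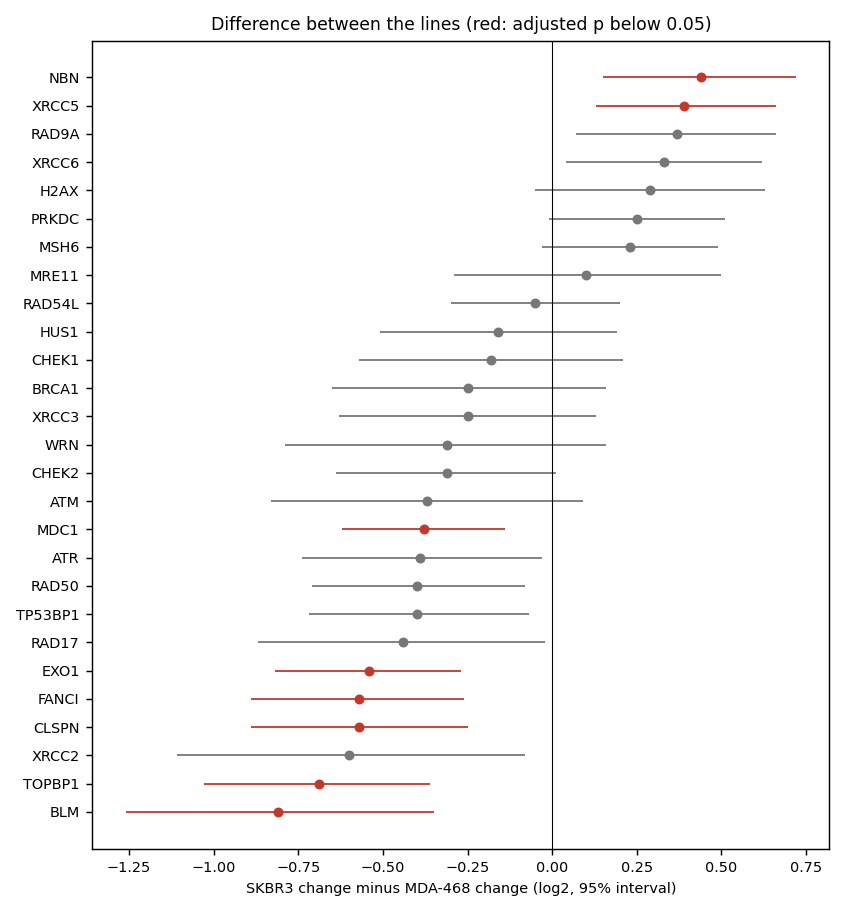
The change in SKBR3 less that in MDA-468 for each gene on the log2 scale, with the 95% interval of the fit; red marks an adjusted p below 0.05. BLM, TOPBP1, CLSPN, FANCI, EXO1 and MDC1 lie below 0 and NBN and XRCC5 above.

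Promoter sequence is shown for 4 genes that rose in MDA-468 and hold the octamer described below, for MSH6, which holds it and fell, and for CHEK2, which rose without it. These genes were picked with their calls known. The counts below are descriptive, and a link between octamer and change was not tested. Of the 24 listed genes with a RefSeq promoter (GRCh38.p14; 250 bases before to 50 after the start), 8 held an octamer of the type bound by E2F factors, the regulators of S phase genes, in at least 1 of their promoters. The letters searched on both strands were TTTGGCGC, TTTCCCGC, TTTCGCGC and TTTGCCGC, and 3.31% of all 35116 promoters held at least 1 of them, against 8 of the 35 promoters of these genes. Of the 6 genes with the octamer and a probe set, CLSPN, TOPBP1, XRCC2 and EXO1 rose in MDA-468, and XRCC6 and MSH6 fell, where 16.4% of all genes rose and 27.0% fell. In SKBR3, TOPBP1 and EXO1 fell and 0 of the 6 rose by limma (0 at an unadjusted p below 0.05). The SKBR3 shares of all genes, for these and the next counts, were 6.64% higher and 17.1% lower. Of the 15 with a promoter but no octamer there, 2 rose and 2 fell in MDA-468, and 3 rose and 7 fell in SKBR3. The 2 that rose in MDA-468 were CHEK2 and RAD54L. FANCI, which also rose there, had no promoter in the set searched. The lines below give the bases from 70 before to 30 after the start, 5′ to 3′ on the gene's strand. They cover the 4 octamer genes that rose in MDA-468 and MSH6, which fell, with the octamer in capitals. CHEK2 has no such octamer in its promoter. Its capitals mark the 2 CCAAT boxes inside the window, of 3 in the promoter, read here on the other strand.
CLSPN (chr1:35769949-35770048, minus strand): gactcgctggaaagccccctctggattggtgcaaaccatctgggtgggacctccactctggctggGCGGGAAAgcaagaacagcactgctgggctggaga
TOPBP1 (chr3:133661912-133662011, minus strand): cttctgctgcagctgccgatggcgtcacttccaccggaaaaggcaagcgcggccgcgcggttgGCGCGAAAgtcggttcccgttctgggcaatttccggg
XRCC2 (chr7:152676112-152676211, minus strand): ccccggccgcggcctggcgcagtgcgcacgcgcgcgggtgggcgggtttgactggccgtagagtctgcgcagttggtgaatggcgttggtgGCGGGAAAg
EXO1 (chr1:241848134-241848233, plus strand): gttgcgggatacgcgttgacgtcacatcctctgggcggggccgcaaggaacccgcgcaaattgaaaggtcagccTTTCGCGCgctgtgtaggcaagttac
MSH6 (chr2:47783075-47783174, plus strand): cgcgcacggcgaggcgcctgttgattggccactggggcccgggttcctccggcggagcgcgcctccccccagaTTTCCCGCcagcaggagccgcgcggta
CHEK2 (chr22:28741791-28741890, minus strand): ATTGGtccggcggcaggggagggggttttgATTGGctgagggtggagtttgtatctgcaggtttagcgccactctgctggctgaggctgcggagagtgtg

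The octamer of XRCC6, which fell, begins 43 bases after the start, past the end of these windows. A CCAAT box was found in promoters of 17 of the 24 genes (62.9% of their 35 promoters, 34.6% of all promoters), and TTTGAA, the cell cycle homology region, in 4 of the 24 (11.4% of their promoters, 15.2% of all). The interferon response element, searched as GAAA, any 2 bases and GAAA again, was not found in any of the 35, CHEK2 included, and 3.57% of all promoters held it. A match is a description of letters and not of binding.

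Beyond the 30 genes, 120 other genes of checkpoints and repair were listed, of which 108 were tested. In SKBR3, 25 of them fell (23.1%, against 17.1% of all genes) and 0 rose by limma (1 was higher at an unadjusted p below 0.05; 6.64% of all genes rose), with a median of -0.25 against -0.08 for all genes. The deepest falls were those of TTK, a spindle checkpoint kinase (-1.02 ± 0.22), NEIL3, a DNA glycosylase (-0.85 ± 0.15), PMS1, a mismatch repair protein (-0.80 ± 0.13), CDC25C, the phosphatase that starts mitosis (-0.74 ± 0.14), and RAD51C, a recombination gene (-0.72 ± 0.13). In MDA-468, 18 rose (16.7%) and 34 fell (31.5%), shares near the 16.4% and 27.0% of all genes, with a median of -0.09 against -0.02. BRIP1, the helicase partner of BRCA1, rose by 1.38 ± 0.15, WEE1, the kinase that holds back mitosis, by 0.92 ± 0.08, POLQ, the polymerase of microhomology end joining, by 0.91 ± 0.09 and RAD51AP1, a recombination cofactor, by 0.61 ± 0.16. CDC25C (-1.11 ± 0.11), CETN2, which aids damage recognition in nucleotide excision repair (-1.08 ± 0.12), POLD2, a polymerase delta subunit (-0.78 ± 0.09), POLB, the polymerase of base excision repair (-0.71 ± 0.15), and UNG, the uracil glycosylase (-0.70 ± 0.08), fell.

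By pathway, to be read against 6.64% of all genes higher and 17.1% lower in SKBR3 and 16.4% and 27.0% in MDA-468, other recombination genes gave 0 higher by limma (1 at an unadjusted p below 0.05) and 7 lower of 29 in SKBR3, against 7 higher and 4 lower in MDA-468. Base excision genes gave 3 lower in SKBR3 (18.8%) and 6 lower in MDA-468 (37.5%) of 16, with 0 higher in either (0 at an unadjusted p below 0.05 in both). The difference between the lines was called lower for 9 of the 29 other recombination genes (10.7% of all genes). For POLQ, listed under end joining, it was -1.22 (adjusted p = 0.000268).

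**Figure D5:**
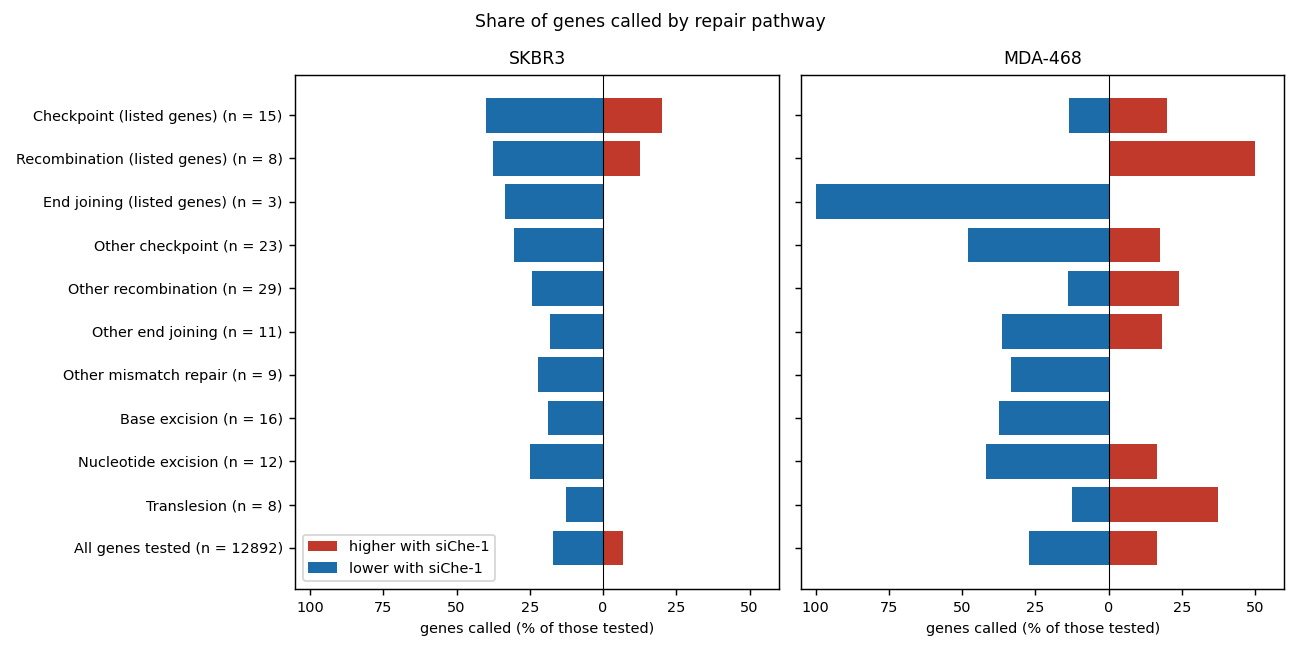
The share of genes called higher (red, to the right) or lower (blue, to the left) with siChe-1, in percent of those tested, for each repair pathway and for all genes; n is the number tested. In MDA-468 the recombination and translesion lists have more calls to the right and the end joining and excision lists more to the left; in SKBR3 the calls of the lists beyond the 30 genes all lie to the left.

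Proliferation genes moved beside these changes. Of 16 listed, 10 fell and 0 rose in SKBR3 (limma; median -0.49, against -0.08 for all genes; 0 higher at an unadjusted p below 0.05), where 17.1% of all genes fell. In MDA-468, 13 fell and 0 rose (limma; median -0.46, against -0.02 for all genes; 0 higher at an unadjusted p below 0.05), where 27.0% of all genes fell. In SKBR3 and MDA-468, MKI67 changed by -0.53 and -0.35, TOP2A by -0.87 and -0.46 and CCNB1 by -0.58 and -1.05. E2F1 was called in neither line (adjusted p = 0.610 and 0.132). Among the other listed genes in MDA-468, MCM2 (-0.40), MCM6 (-0.63), CCNE1 (-0.48), RRM2 (-0.36) and TYMS (-0.37) were called lower, and MCM3 and CCNE2 were not called. In SKBR3, RRM2 (-0.48) and TYMS (-0.32) were called lower, and MCM2, MCM3, MCM6, CCNE1 and CCNE2 were not called. Interferon-stimulated genes rose in 7 of 7 tested in each line, with medians of 6.47 and 4.35. The part of either list in the changes of checkpoint and repair genes was not tested.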

How the data were processed

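The authors deposited log2 intensities, 1 for each probe set and array. Per the submitters' processing notes, RMA was run in Affymetrix Expression Console; neither software versions nor which arrays were normalized jointly is stated in those notes or the labels. Of 33297 probe sets, 19460 had 1 gene symbol, 1754 several and 12083 none; symbols were updated by gene ID through RefSeq (19429 matched). For genes with several probe sets the highest mean was kept, and genes below the 30th percentile of the mean over all 10 arrays (6.03) were left out. limma 3.58.1 in R 4.3.3 fitted 1 linear model of the 4 groups (6 residual and 4.92 prior degrees of freedom), without a replicate block, and p-values were adjusted by Benjamini-Hochberg across 12892 genes (threshold 0.05). It was tested on simulated data. The number of arrays limits precision.

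The genes, lists and tests were chosen with earlier results of these data known. All listed genes are named; those called with a log2 change of 0.5 or more in a line are given by array. NBN, TOPBP1, EXO1 and XRCC6 were given by array after their values were seen. Of the other repair genes, up to 5 highest and 5 lowest calls per line past 0.5 are named. The alternatives were no filter, a 50th percentile filter, quantile normalization or centring, each line alone, a block for replicate number, a crossed block in SKBR3 added after seeing the data, the mean of probe sets, a trended robust prior, and leaving out each array.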

Additional observations from a re-analysis of the deposited data

Results flagged for a closer look

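The response to siChe-1 differed between SKBR3 and MDA-468, by limma's test of the difference itself, for 8 of the 27 genes. The change in SKBR3 less that in MDA-468 was -0.81 for BLM, -0.69 for TOPBP1, -0.57 for CLSPN, -0.57 for FANCI, -0.54 for EXO1 and -0.38 for MDC1. It was 0.44 for NBN and 0.39 for XRCC5. No group held 4 or more arrays, so single arrays were not tested as outliers.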

How the results depend on the processing

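The calls of CHEK2 (both lines), RAD17 (SKBR3), and CLSPN, RAD54L, PRKDC, XRCC5 and XRCC6 (MDA-468), and the TOPBP1 difference between lines, held under each alternative run; the other 12 calls in SKBR3, 7 in MDA-468 and 7 between lines were lost at least once. No called gene changed sign. AATF stayed called, from -0.72 to -0.60 in SKBR3 and from -1.77 to -1.67 in MDA-468 with 1 array left out. Fitted alone, SKBR3 gave 1 higher and 1 lower gene, and MDA-468 gave 7 higher and 8 lower. With the replicate block, SKBR3 gave 1 lower, MDA-468 3 higher and 3 lower, and the difference between lines 0 higher and 1 lower. Deviations of same-numbered arrays from their group means correlated at -0.556 in SKBR3 and at -0.491, 0.00154 and -0.276 in MDA-468. For siControl and siChe-1 arrays of different number the values were 0.556 in SKBR3 and -0.202 to 0.444 in MDA-468. The numbers were therefore not taken to pair the arrays. The main fit has no term for scatter shared between siControl and siChe-1 arrays. A crossed pairing in SKBR3, added after seeing the data, gave 17 lower. Centring left 4 higher in MDA-468 and 0 higher for the difference, and no filter also left 0 higher for the difference. Leaving out 1 array gave 2 to 4 higher and 1 to 18 lower in SKBR3, 3 to 7 higher and 4 to 7 lower in MDA-468, and 0 to 2 higher and 2 to 15 lower for the difference; an SKBR3 group left with 1 array is assumed to vary like the others. The cause of these shifts was not tested.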
